A study of Rattus norvegicus with 20 samples.

Results

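Heart cell cultures given celecoxib at the highest reference concentration, 1, were compared with cultures given the lowest, 1/25, after 6 h. The comparison rests on the 3 arrays labelled concentration 1 for 6 h and the 3 labelled 1/25 for 6 h, 6 of the 20 arrays in the series. The cultures were primary cultures of neonatal rat heart, grown for 1 day in DMEM before treatment, and RNA was hybridised to single-colour Agilent arrays. The labels give the concentrations only relative to each other and name no strain, sex or vehicle, and every one of the 6 arrays carries celecoxib. At 6 h there were also 3 arrays at 1/5, and 2 untreated arrays have no stated time. At 24 h there were 3 arrays each at 1, 1/5 and 1/25. Nothing in the labels tells separate cultures from repeats of 1 culture, so a p-value here covers only sample-to-sample spread, part or all of which could be technical.

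Celecoxib inhibits cyclo-oxygenase 2, the inducible enzyme (gene Ptgs2) that turns arachidonic acid into the precursor of the prostaglandins and of prostacyclin. Cyclo-oxygenase 1 (gene Ptgs1) is its constitutive relative, and prostacyclin and prostaglandin E are made from their common product by the synthases encoded by Ptgis and Ptges. Cells short of amino acids or with misfolded protein slow protein synthesis and translate the transcription factor ATF4, which switches on amino acid transporters, aminoacyl-tRNA synthetases and stress genes. That program is called the integrated stress response.

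A level below is the log2 fluorescence signal of a gene's probe minus the log2 75th percentile of the array, and a difference is concentration 1 minus 1/25 on that scale. Levels of different genes come from different probes and are not compared with each other. The 6 arrays were scanned on 2 days. Scan day 1 held replicates 1 and 2 of concentration 1, replicate 1 of 1/25 and the untreated arrays. Scan day 2 held replicate 3 of concentration 1, replicates 2 and 3 of 1/25 and all 3 arrays at 1/5. No slide held arrays of both concentrations. Differences were fitted with scan day as a block, which averages the difference within day 1 and the difference within day 2 with equal weight. Between 67.1% and 78.1% of probes were well above background on the arrays of concentration 1, and between 64.0% and 83.1% on those of 1/25.

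No gene differed between the concentrations at 6 h after adjustment. Of 27713 genes tested, 0 (0%) had an adjusted p below 0.05 in limma with Benjamini-Hochberg adjustment, and the smallest adjusted p was 0.300. Single arrays moved that count: it was 26 without replicate 3 of concentration 1, 13 without replicate 2 of 1/25, 2 without replicate 1 of 1/25 and 0 without each of the others. Replicate 3 of concentration 1 and replicate 1 of 1/25 were each the only array of their concentration on their scan day. Leaving out either of them leaves only the difference within the other day. At an unadjusted p below 0.05 there were 1539 genes (5.55%), of which 1135 (4.10%) read higher at concentration 1 and 404 (1.46%) read lower. Without replicate 2 of 1/25 the unadjusted count was 4071. The higher share depended on the scaling: with each array centred on its median, 655 read higher and 744 lower, and with quantile normalisation the counts were 853 and 615. Centring on the median moved the median difference of all genes from 0.04 to -0.12. The differences below are therefore to be read against a median that the choice of scaling shifts by more than 0.1.

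The fit bounded the difference of most genes to within 4-fold, with the spread estimated from all 20 arrays. The 95% interval of the difference reached a median of 0.72 to either side, a 1.65-fold change. For 13867 of the genes the interval lay wholly within 2-fold in both directions, and for 24835 (89.6%) within 4-fold. An estimate above 2-fold in either direction was read for 1517 genes (5.47%).

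The differences of the 2 scan days had little in common across genes. Over 27556 genes the within-day 1 and within-day 2 differences had a correlation of 0.0055 as a description, and 48.6% had the same sign. The genes share arrays and are not independent replicates. Levels across genes were more alike within a scan day than within a concentration. The 6 pairs of arrays scanned on the same day, 4 of them of different concentrations, correlated at 0.924 to 0.964, and the 9 pairs of different days at 0.867 to 0.919. Genes whose arrays of concentration 1 all lay above those of 1/25 within both days numbered 2655 of 27615 (9.61%), and 1988 (7.20%) lay below. A test of the difference between the days, chosen after the data were seen, called 2 of 27632 genes at an adjusted p below 0.05 (limma, Benjamini-Hochberg), and 2082 (7.53%) at an unadjusted one.

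**Figure D1:**
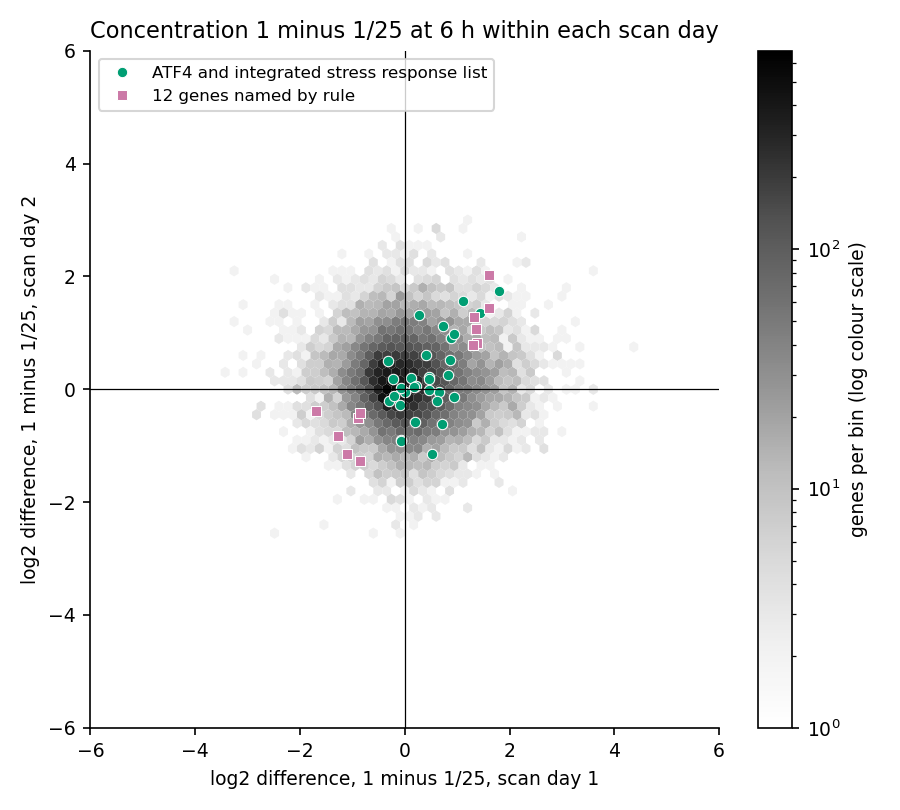
Each grey bin counts genes by their log2 difference, concentration 1 minus 1/25 at 6 h, within scan day 1 (horizontal) and within scan day 2 (vertical), with the 31 tested genes of the stress response list around ATF4 as circles and the 12 genes named by rule as squares. The cloud has no slope, and the squares lie in 2 opposite quadrants because the rule asked for the same direction on both days.

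Within single days some genes did pass. Each day held a lone array of 1 concentration, which was taken to vary like the other groups. With a mean for each group and day, 21 genes passed within day 1 (19 higher and 2 lower) and 2 within day 2, and 0 genes were in both sets. The higher calls of day 1 read higher on day 2 in 9 of 19 cases. The day 2 genes were Kcnj15, a potassium channel, and an unnamed transcript, AI639113, both named after their values were seen. Kcnj15 read -2.40 on the day 2 array of concentration 1, where alone it was well above background, and -6.50 and -6.23 on the day 2 arrays of 1/25. On day 1 it read -5.90 and -6.66 at concentration 1 and -4.59 at 1/25, the other way round. AI639113 read -2.78 against -7.32 and -6.48 on day 2, and -4.61 and -4.30 against -5.61 on day 1. Neither was well above background on any array of 1/25, so their levels there are bounds. The 2 genes that differed between the days were Kcnj15 again (-5.66 ± 0.66 SE, adjusted p = 0.0140 in limma) and AI639375 (7.41 ± 0.97 SE, adjusted p = 0.0283 in limma). AI639375 was well above background on 2 of 3 arrays of each concentration, and its lowest values, -6.18 and -5.35, were on the lone array of each day. With levels this near background the sizes of both differences are not exact.

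The cultures carried the markers of heart muscle. Of 12 cardiomyocyte markers, 11 read well above background on each of the 6 arrays. Their mean level ran from 0.23 to 1.05 at concentration 1 and from 0.12 to 1.20 at 1/25. Fibroblast markers were also present, with 10 of 12 well above background on all 6 arrays and mean levels of -1.10 to -0.75 at concentration 1 and -1.20 to -0.93 at 1/25. Markers of smooth muscle (8 of 10), endothelium (5 of 12), macrophages and leukocytes (7 of 14), erythroid cells (4 of 10) and epicardium or neural crest (6 of 12) were well above background on all 6 arrays in part. Well above background on none of them were Vwf and Emcn of endothelium, Itgam and Fcgr2b of leukocytes, Hbb of erythroid cells and S100b of neural crest derived cells. In all 7 marker lists the ranges of the mean level at the 2 concentrations overlapped, and 0 members had an unadjusted p below 0.05. In these bulk samples fewer cells of a type and less RNA per cell cannot be told apart.

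The heavy chains of cardiac myosin had the smallest p among the cardiomyocyte markers, and neither passed the test. Myh7, the slow chain, read 2.25, 1.25 and 0.14 at concentration 1 and 2.70, 0.22 and 2.36 at 1/25. Myh6, the fast chain, read 2.10, 1.21 and -0.46 against 2.68, -0.62 and 2.40. Within each concentration the arrays spanned a wider range than the distance between the groups, and the groups overlapped across days. Within both days Myh7 lay below 1/25, as did 7.20% of all genes, while Myh6 did so on day 1 only. The differences were -1.05 ± 0.53 SE for Myh7 (95% interval -2.18 to 0.07, adjusted p = 0.892 in limma) and -1.19 ± 0.63 SE for Myh6 (-2.54 to 0.16, adjusted p = 0.899). Nkx2-5, a transcription factor of the heart lineage, differed by -0.36 ± 0.35 SE and was well above background on 2 of 3 arrays of concentration 1.

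Among 25 pathway lists, the list of ATF4 and the integrated stress response held the most genes at an unadjusted p below 0.05 in 1 direction. Of its 37 genes, 31 were tested and 0 passed the adjusted threshold. At an unadjusted p below 0.05, 6 of 31 (19.4%) read higher at concentration 1, beside 4.10% of all genes, and 0 read lower. The median difference of the list was 0.20, beside 0.04 for all genes, and 21 of 31 members read higher. Within both days 9 members lay wholly above 1/25 (29.0% of the list, beside 9.61% of all genes), and 2 lay below. The list median was 0.45 within day 1, beside -0.04 for all genes, but 0.06 within day 2, beside 0.11 for all genes. With each array centred on its median, the list median was 0.04 with 16 of 31 members higher, beside -0.12 for all genes. Leaving out replicate 3 of concentration 1, which leaves the day 1 difference, gave 1 member at an unadjusted p below 0.05. Leaving out replicate 1 of 1/25, which leaves the day 2 difference, gave 3 higher and 2 lower. The mean level of the 31 genes was -0.06, -0.08 and -0.27 on the arrays of concentration 1 and -0.50, -0.39 and -0.57 on those of 1/25. It was -0.01 and -0.30 on the untreated arrays and -0.42, -0.40 and -0.48 at 1/5. The arrays at 1/5 and 1/25 thus overlapped each other, and both lay below the untreated arrays and those of concentration 1. The untreated arrays were of scan day 1 and the 1/5 arrays of day 2. Scan day and treatment cannot be told apart between those groups. Concentration 1 also read lowest on its day 2 array, at -0.27.

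The 6 members were 3 amino acid transporter genes, 2 genes of tRNA charging and a lipoprotein receptor gene. Slc7a11, Vldlr and Slc3a2 were named by the rule of the 3 smallest p of a list. Sars1, Gars1 and Slc7a5 were chosen after their values were seen. In 5 of the 6 every array of concentration 1 lay above every array of 1/25, and in Gars1 the arrays were apart within each day only. Since a small p on these same arrays picked the 6 genes, that separation is a description. The share of all genes so apart across days was not counted. No value below is a called change.

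Slc7a11 encodes the transport subunit of the cystine-glutamate exchanger. It read -3.62, -4.09 and -4.12 at concentration 1 and -5.65, -5.77 and -5.96 at 1/25, with -4.12 and -3.71 on the untreated arrays. The groups were apart by more than either spanned. The probe was well above background on 3 of 3 arrays of concentration 1 and on 1 of 3 at 1/25, so its level at 1/25 is in part near the limit of measurement. The difference was 1.77 ± 0.41 SE (95% interval 0.89 to 2.64, n = 3 and 3, adjusted p = 0.764 in limma), 1.79 within day 1 and 1.74 within day 2.

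Slc3a2 encodes the heavy chain that pairs with Slc7a11 and Slc7a5 at the cell surface. It read 1.50, 1.02 and 0.76 at concentration 1 and 0.52, 0.11 and -0.84 at 1/25. The lowest array of concentration 1 was above the highest of 1/25. The difference was 0.93 ± 0.33 SE (0.23 to 1.62, adjusted p = 0.875 in limma). Slc7a5, the large neutral amino acid transporter, read 2.19, 1.94 and 1.87 against 1.21, 1.42 and 1.28, again without overlap, a difference of 0.69 ± 0.29 SE (0.08 to 1.30, adjusted p = 0.892 in limma).

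Sars1 and Gars1 encode the seryl- and glycyl-tRNA synthetases, which load amino acids onto their tRNAs. Sars1 read -0.08, 0.09 and -0.28 at concentration 1 and -0.87, -1.31 and -1.06 at 1/25, a difference of 0.89 ± 0.33 SE (0.19 to 1.59, adjusted p = 0.886 in limma). Gars1 read -0.47, -0.94 and -0.26 against -2.15, -0.90 and -2.32, with replicate 2 of 1/25 inside the range of concentration 1 (1.40 ± 0.55 SE, 0.22 to 2.57, adjusted p = 0.892). Both differences were close to equal on the 2 days, 0.88 and 0.90 for Sars1 and 1.44 and 1.35 for Gars1. Vldlr, a receptor for very low density lipoprotein, read -2.79, -1.85 and -2.47 against -3.43, -3.13 and -4.93, with the lowest value on replicate 3 of 1/25 (1.34 ± 0.46 SE, 0.36 to 2.31, adjusted p = 0.862).

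**Figure D2:**
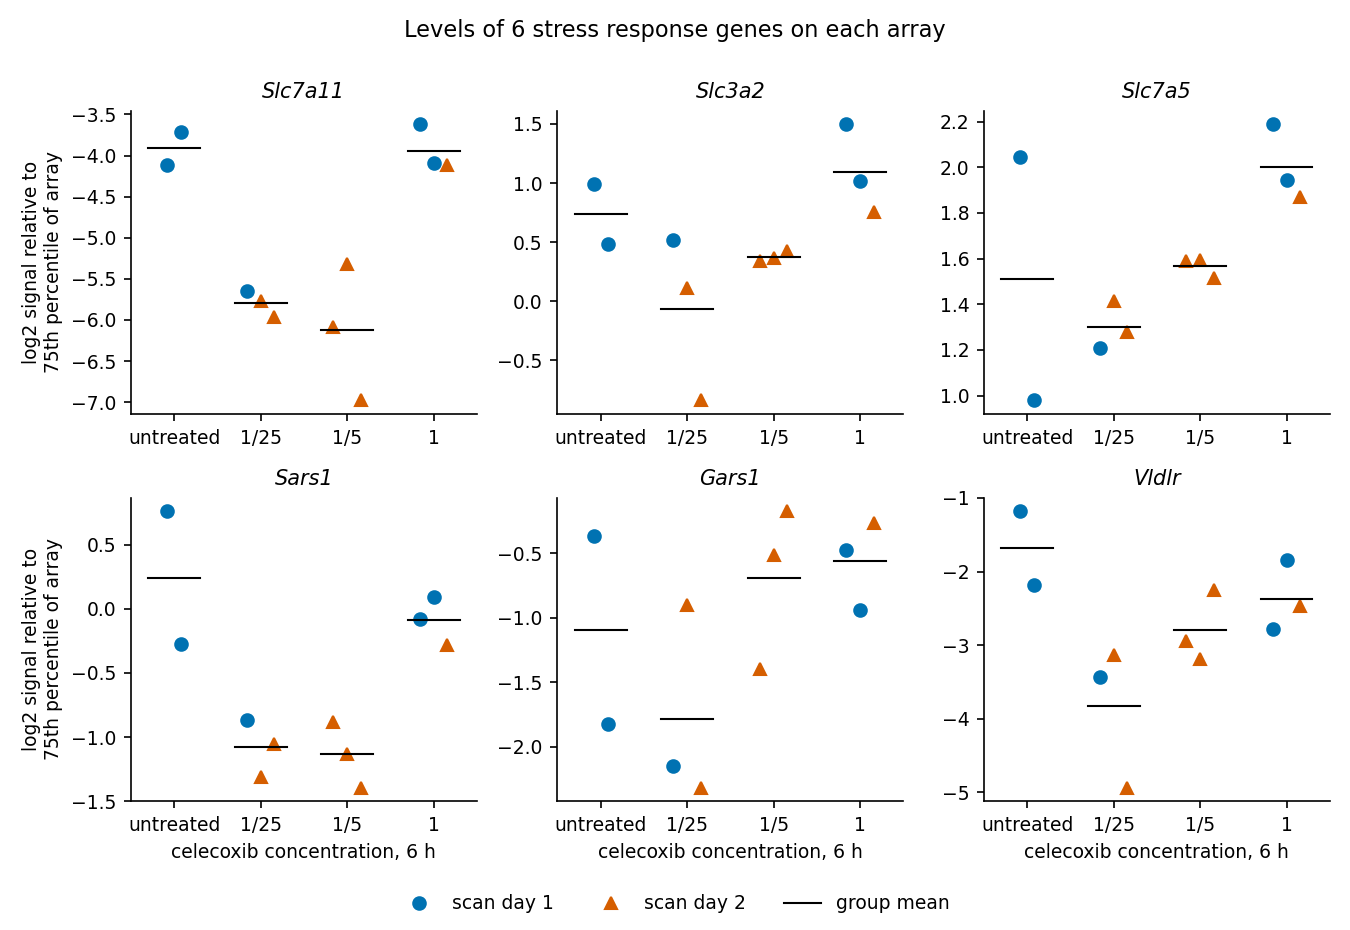
Level (log2 signal relative to the 75th percentile of the array, vertical) of 6 genes on the untreated arrays and on the 6 h arrays by celecoxib concentration (horizontal), each point 1 array, shaped by scan day, with the group mean as a line. The arrays of concentration 1 lie above those of 1/25 except in Gars1, where replicate 2 of 1/25 at -0.90 lies within the range of concentration 1.

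The 1/5 arrays, all scanned on day 2, give an intermediate concentration beside the day 2 arrays of the others. In 5 of the 6 genes the 1/5 median lay between the array of concentration 1 and the mean of the 1/25 arrays. The 6 genes were picked by the distance between concentration 1 and 1/25, which favours such a place for the median. The order is therefore a description. Slc3a2 read 0.76 at concentration 1, 0.34, 0.36 and 0.42 at 1/5, and 0.11 and -0.84 at 1/25. Slc7a5 read 1.87, then 1.59, 1.59 and 1.52, then 1.42 and 1.28, an unbroken order over these 6 arrays. In Vldlr and Gars1 the highest 1/5 array, at -2.26 and -0.17, was above concentration 1 at -2.47 and -0.26, and in Sars1 the 1/5 median of -1.13 lay between the 1/25 values of -1.31 and -1.06. In Slc7a11 the median lay below both, with -6.09, -5.32 and -6.98 at 1/5 spanning the values at 1/25. Of the whole list, 10 of 31 genes, these 5 among them, had levels in the order 1/25, 1/5 and 1, and 25.2% of all 27654 genes with values did.

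Atf4, Ddit3, Trib3, Atf3, Asns and Phgdh, regulators and enzymes of the same program, had no unadjusted p below 0.05 in limma. Atf4 itself read 2.54, 2.56 and 1.85 at concentration 1 and 2.75, 1.71 and 2.24 at 1/25 (-0.16 ± 0.20 SE), with its probe saturated on 2 of 3 and 3 of 3 arrays, which compresses a difference. Ddit3, the stress transcription factor CHOP, read -0.95, -0.37 and -1.87 against -1.37, -1.18 and -1.31 (0.04 ± 0.34 SE, 95% interval -0.67 to 0.76), higher within day 1 by 0.71 and lower within day 2 by -0.62. In both genes the groups overlapped. Trib3, a pseudokinase that dampens ATF4, differed by 0.16 ± 0.25 SE, Atf3 by 0.20 ± 0.32 SE and the asparagine synthetase gene Asns by -0.19 ± 0.32 SE. Phgdh, the first enzyme of serine synthesis, read -0.50 ± 0.35 SE. The intervals of Trib3 (-0.37 to 0.69) and Asns (-0.87 to 0.49) lie within 2-fold. Psat1, Cebpb, Fgf21 and Stc2 were well above background on none of the 6 arrays.

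The promoters of the list were searched for the composite element that ATF4 binds with a C/EBP partner, written TGATGNAA, on both strands (TTNCATCA on the other), in windows of 250 bases before to 50 after each RefSeq start (build GRCr8). It stood in 8 of the 27 list genes with a window (29.6%), beside 1332 of 33469 windows of the same length (3.98%). None of the 5 windows available among the 6 genes above held it (0 of 5), Gars1 having no entry. That says only that these letters are not in those windows. The 3 stretches below, all upstream of the start, are shown because the element is present in genes that had no unadjusted p below 0.05. Capitals mark the element.
Chac1, chr3:126795918-126796017, plus strand: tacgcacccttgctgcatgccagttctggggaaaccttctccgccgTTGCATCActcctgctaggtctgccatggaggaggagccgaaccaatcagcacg
Aars1, chr19:55908324-55908423, plus strand: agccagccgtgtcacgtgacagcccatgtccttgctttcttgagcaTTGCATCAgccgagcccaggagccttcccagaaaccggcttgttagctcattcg
Nupr1, chr1:190645903-190646002, minus strand: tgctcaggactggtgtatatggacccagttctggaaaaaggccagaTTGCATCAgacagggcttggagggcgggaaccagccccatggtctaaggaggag

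Chac1, an enzyme that breaks down glutathione, read 2.14, 2.15 and 1.35 at concentration 1 and 2.24, 1.38 and 1.89 at 1/25, a difference of -0.19 ± 0.19 SE (-0.58 to 0.21). It lay below 1/25 within each day but overlapped across them, and its other kept probe read 0.88, in the opposite direction. Aars1, the alanyl-tRNA synthetase, differed by 0.33 ± 0.25 SE and was above 1/25 within each day. Nupr1, a stress-induced chromatin protein, differed by -0.49 ± 0.31 SE and was not apart in 1 direction on both days. Of these 3 genes Aars1 read higher and Nupr1 lower, and the sign of Chac1 depended on the probe.

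At 24 h 28 of the 31 list members read higher at concentration 1 than at 1/25, beside 21 of 31 at 6 h, with medians of 0.32 and 0.20. The 24 h arrays are other samples, all of scan day 1. At 24 h 2 of 27713 genes (0.00722%) passed, both of them unnamed transcripts outside the list, AA997228 (1.87 ± 0.24 SE, and 0.44 at 6 h) and CB544780 (2.82 ± 0.37 SE, and -0.54 at 6 h). Slc7a5 differed by 1.37 ± 0.27 SE at 24 h and 0.69 ± 0.29 SE at 6 h, and Slc7a11 by 0.34 ± 0.39 SE and 1.77 ± 0.41 SE. Atf3 differed by 1.04 ± 0.30 SE at 24 h and 0.20 ± 0.32 SE at 6 h. The difference between the times was tested in the same fit: 0 of 27713 genes passed (0%), 1222 (4.41%) had an unadjusted p below 0.05, and the smallest adjusted p was 0.387 (limma, Benjamini-Hochberg). Slc7a11 was the only one of the 31 with an unadjusted p below 0.05 for that difference (1.43, adjusted p = 0.994).

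By the naming rule, 6 genes were named in each direction by the smallest p among those apart in the same direction on both days and well above background on all 6 arrays. Since the rule chose them for that separation, their values are a description. Zfp335, a zinc finger transcription factor, read -1.60, -2.13 and -1.37 at concentration 1 and -3.47, -2.89 and -3.90 at 1/25. The untreated arrays read -1.58 and -1.44 and the 1/5 arrays -1.48, -2.28 and -2.30, so 1/25 stood below all the others. The difference was 1.81 ± 0.32 SE (1.14 to 2.49, adjusted p = 0.505 in limma), and without replicate 2 of 1/25 it was 2.00 with an adjusted p of 0.0443.

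The other 5 higher genes have varied roles. Eif1ax, a translation initiation factor, read -0.50, -0.77 and -1.27 against -1.93, -1.82 and -2.28 (1.04 ± 0.24 SE). Prpf19, a ubiquitin ligase of the spliceosome, read -1.22, -1.21 and -1.27 against -2.82, -2.11 and -3.32 (1.53 ± 0.41 SE). Sugp2, a protein with a splicing factor domain, read -0.53, -0.03 and -0.60 against -1.64, -1.24 and -2.10 (1.22 ± 0.31 SE). In these 3 every array of concentration 1 lay above every array of 1/25. Glod4, of the glyoxalase family, differed by 1.10 ± 0.23 SE and Mzt2b, a part of the gamma-tubulin ring complex, by 1.30 ± 0.33 SE. Adjusted p-values of the 6 genes ran from 0.505 to 0.860 in limma.

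The 6 lower genes were apart within days but overlapped across them. Plek2, a pleckstrin of the actin skeleton, read -2.26, -2.08 and -3.72 at concentration 1 and -1.31, -2.80 and -2.09 at 1/25 (-1.07 ± 0.27 SE). Ntan1, an amidase that marks proteins for degradation, read -3.91, -4.04 and -2.80 against -2.87, -2.09 and -1.21 (-1.13 ± 0.38 SE). Oxnad1, an oxidoreductase, read -3.66 and -3.88 on day 1 and -0.13 on day 2 at concentration 1, against -2.07 on day 1 and 0.01 and 0.51 on day 2. In Oxnad1 the scan days stood further apart than the concentrations, and its other kept probe read in the opposite direction. Micall2 (-1.05 ± 0.30 SE), the serine peptidase gene Apeh (-0.70 ± 0.22 SE) and the peroxisomal fatty acid transporter gene Abcd2 (-0.64 ± 0.21 SE) completed the set, with adjusted p-values of 0.837 to 0.862 in limma. At 24 h the 6 higher genes read between -0.24 and 0.36 and the 6 lower between -0.21 and 0.61.

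**Figure D3:**
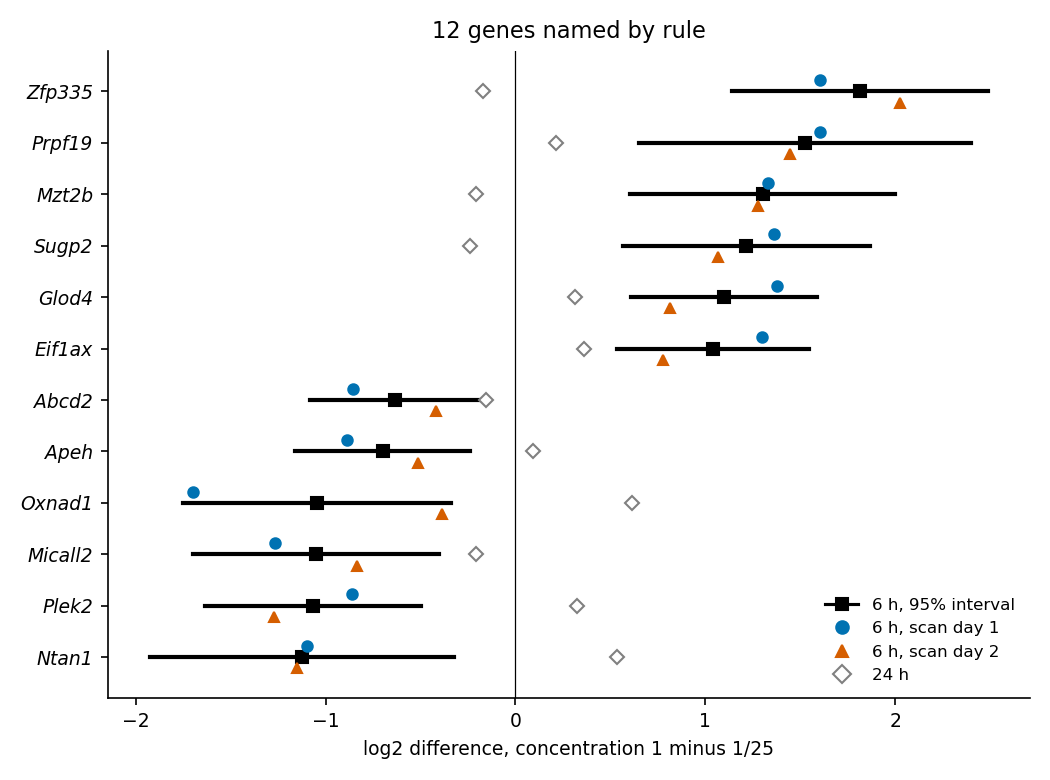
Log2 difference, concentration 1 minus 1/25 (horizontal), of the 12 genes named by rule (vertical), with the 6 h estimate and its 95% interval as squares and bars, the within-day values as circles and triangles, and the 24 h difference as open diamonds. The 6 h estimates run from 1.04 to 1.81 above 0 and from -1.13 to -0.64 below it, and the 24 h values lie between -0.24 and 0.61.

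The genes nearest to the drug's target were those of prostanoid synthesis. Of the 22 genes of the prostanoid list 13 were tested, 0 passed, and at an unadjusted p below 0.05 there were 0 higher and 3 lower, beside 1.46% of all genes lower. The 3 lower became 0 within day 2, where the list's median was -0.27. Leaving out replicate 1 of 1/25 leaves that same day 2 difference. Over both days the list's median difference was -0.04, beside 0.04 for all genes. Ptgs2 read -1.37, -2.17 and -0.68 at concentration 1 and -0.74, -0.39 and 0.23 at 1/25. The arrays were apart within each day but overlapped across days, and the 1/5 arrays read -1.40, -0.96 and -1.19. The untreated arrays, at -3.87 and -2.40, lay below every 6 h celecoxib array. They have no stated time and were scanned on day 1. The 24 h celecoxib arrays read from -4.25 to -3.23 over all concentrations. The 6 h arrays that were also of scan day 1 read -1.37 and -2.17 at concentration 1 and -0.74 at 1/25, above both untreated arrays. Time and treatment cannot be told apart between the untreated and the 6 h arrays. The 1/5 arrays differ from the untreated ones in scan day as well. At 6 h the difference was -0.82 ± 0.37 SE (-1.61 to -0.03, adjusted p = 0.892 in limma), -1.03 within day 1 and -0.60 within day 2. At 24 h it was 0.42 ± 0.35 SE, and the difference between the times, -1.24, did not pass.

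Ptgs1 read 1.80, 1.79 and 1.53 against 1.81, 1.59 and 2.06, lower at concentration 1 within each day, by -0.01 on day 1 and -0.30 on day 2 (-0.15 ± 0.21 SE, -0.60 to 0.30). Ptges read -2.07, -2.02 and -1.96 against -2.15, -1.35 and -2.20 (-0.04 ± 0.31 SE, -0.69 to 0.61). Ptgis read 0.33, -0.37 and 0.17 against -0.56, 0.48 and 0.50 (0.11 ± 0.29 SE, -0.51 to 0.73). Across the days the groups overlapped in all 3 genes, and the intervals lie within 2-fold. The sign of the Ptges and Ptgis differences turned under other settings.

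Among the receptors, Ptgdr, for prostaglandin D, read -4.49, -4.18 and -3.74 at concentration 1, with 1 of 3 arrays well above background, and -1.66, -3.75 and -3.19 at 1/25, with 3 of 3 (-1.47 ± 0.47 SE, adjusted p = 0.862 in limma). Its difference was -2.67 within day 1 and -0.27 within day 2, so it rested on replicate 1 of 1/25. Ptger1, for prostaglandin E, was not well above background on any array of concentration 1 and was on 2 of 3 at 1/25 (adjusted p = 0.875 in limma). It read -3.61, -3.89 and -5.82 at 1/25, with a mean 1.48-fold above a floor set for concentration 1. That floor is the lowest signal of any probe well above background on each array of concentration 1. The mean takes in the array of 1/25 that was not well above background, so 1.48-fold is not a lower bound. Hpgd, Hpgds, Ptger3, Ptger4 and Slco2a1 were well above background on none of the 6 arrays.

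**Figure D4:**
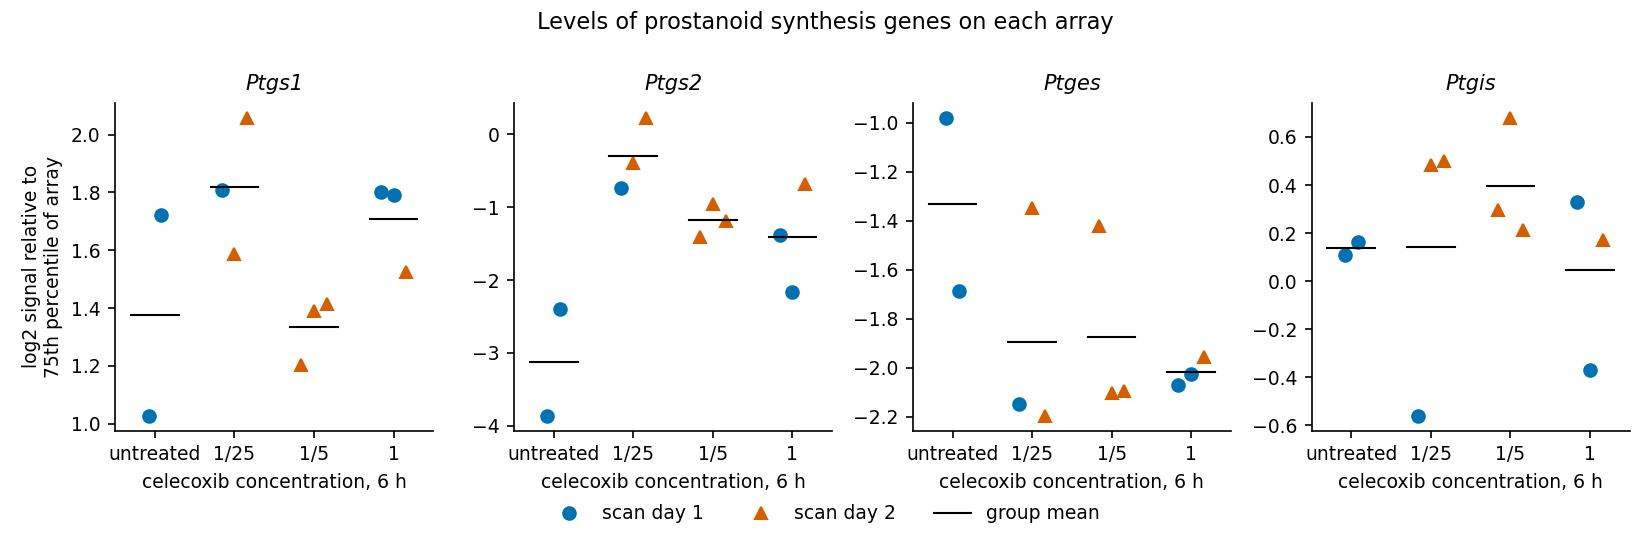
Level (log2 signal relative to the 75th percentile of the array, vertical) of Ptgs1, Ptgs2, Ptges and Ptgis on the untreated and 6 h arrays by celecoxib concentration (horizontal), each point 1 array, shaped by scan day, with group means as lines. Ptgs2 runs from -0.74 to 0.23 at 1/25 and from -2.17 to -0.68 at concentration 1, and the 2 untreated arrays, of no stated time, lie lowest.

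The other 23 lists had between 0 and 2 members higher and between 0 and 2 lower at an unadjusted p below 0.05, and 0 passed. Over all 605 tested genes of the 25 lists, 4.46% read higher and 2.15% lower at an unadjusted p below 0.05, beside 4.10% and 1.46% of all genes. Of 22 endoplasmic reticulum chaperone genes 10 read higher, 2 of them at an unadjusted p below 0.05: Pdia4, a disulfide isomerase (0.45, 0.55 and -0.29 against -0.43, -0.32 and -1.81), and Canx, the calnexin gene (-2.39, -1.27 and -2.34 against -2.46, -2.69 and -3.21). The groups did not overlap in either, the differences were 0.85 ± 0.36 SE and 0.62 ± 0.27 SE, and the list's median was -0.08. Of 14 circadian clock genes 12 read higher with a median of 0.27. The smallest p was that of Dbp, a clock output factor (0.65 ± 0.28 SE, saturated on 3 of 3 arrays of concentration 1 and 1 of 3 of 1/25), and the largest difference that of Cry2 (1.51 ± 0.80 SE), well above background on 2 of 3 and 1 of 3 arrays. At 24 h 5 of the 14 read higher.

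Of 22 cholesterol genes tested, Dhcr7, a late enzyme of cholesterol synthesis, read higher at concentration 1 without overlap, 0.60, 0.92 and 0.59 against 0.47, 0.17 and 0.03 (0.39 ± 0.18 SE), and Ebp read -0.52 ± 0.24 SE. Of 33 oxidative phosphorylation genes Ndufa9 (-0.47 ± 0.16 SE) and Ndufb5 (-0.61 ± 0.28 SE) of complex I read lower and Atp5f1c of the ATP synthase higher (0.49 ± 0.21 SE), with a list median of -0.13. The members of these lists read on both sides of 0.

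In the p53 list Sesn1, a sestrin, read -2.86, -3.23 and -4.29 against -6.68, -5.31 and -7.55 (2.89 ± 0.83 SE, adjusted p = 0.860 in limma), but its probe was well above background on only 1 of 3 arrays of 1/25. Gadd45b read 2.22, 2.20 and -0.02 against 2.10, 1.08 and 2.07, with its difference (-0.74 ± 0.31 SE) carried by replicate 3 of concentration 1. Of the matrix genes Timp3, a metalloproteinase inhibitor, read -0.84, 0.00 and -0.72 against -4.13, -0.05 and -2.13, with the lowest value on replicate 1 of 1/25 (2.04 ± 0.66 SE). Sparc, a matrix glycoprotein, read -0.74, -1.29 and -1.31 against -0.15, -0.93 and 1.01 (-1.11 ± 0.46 SE) and differed by -1.04 ± 0.43 SE at 24 h as well. The chemokine gene Ccl2 read 0.03, -0.17 and -0.45 against 1.25, -0.27 and -0.12 (-0.79 ± 0.30 SE), and the survival gene Mcl1 read -0.61 ± 0.23 SE with its other kept probe in the opposite direction. Each of these groups but Sesn1 overlapped across the days.

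Npr1, the receptor for atrial and B-type natriuretic peptide, read -1.36, -1.91 and -2.18 at concentration 1 and -3.46, -2.26 and -2.52 at 1/25 without overlap (1.02 ± 0.33 SE, 1.82 within day 1 and 0.21 within day 2). The potassium channel subunit gene Kcne1 differed by 1.00 ± 0.45 SE and Angptl4, a PPAR target that inhibits lipoprotein lipase, by 0.97 ± 0.35 SE. Both were well above background on 2 of 3 arrays of 1/25, and Kcne1 on 2 of 3 of concentration 1. Nqo1, a quinone reductase controlled by NRF2, differed by 1.42 ± 0.66 SE, 2.30 within day 1 and 0.53 within day 2. It was well above background on 2 of 3 arrays of each concentration, and its lowest value, -6.30, was on replicate 1 of 1/25.

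Ribosomal protein genes read low as a group. Of 31 genes 2 (Rpl4 and Rpl27) read higher at concentration 1 and 29 did not, with a median difference of -0.26 and 0 at an unadjusted p below 0.05. Without the scan day term 15 of 31 read higher and the median was -0.05, and within day 2 it was 13 of 31. Probes of 24 of the 31 genes were saturated on at least 1 of the 6 arrays and 9 on all 6, which compresses differences.

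**Figure D5:**
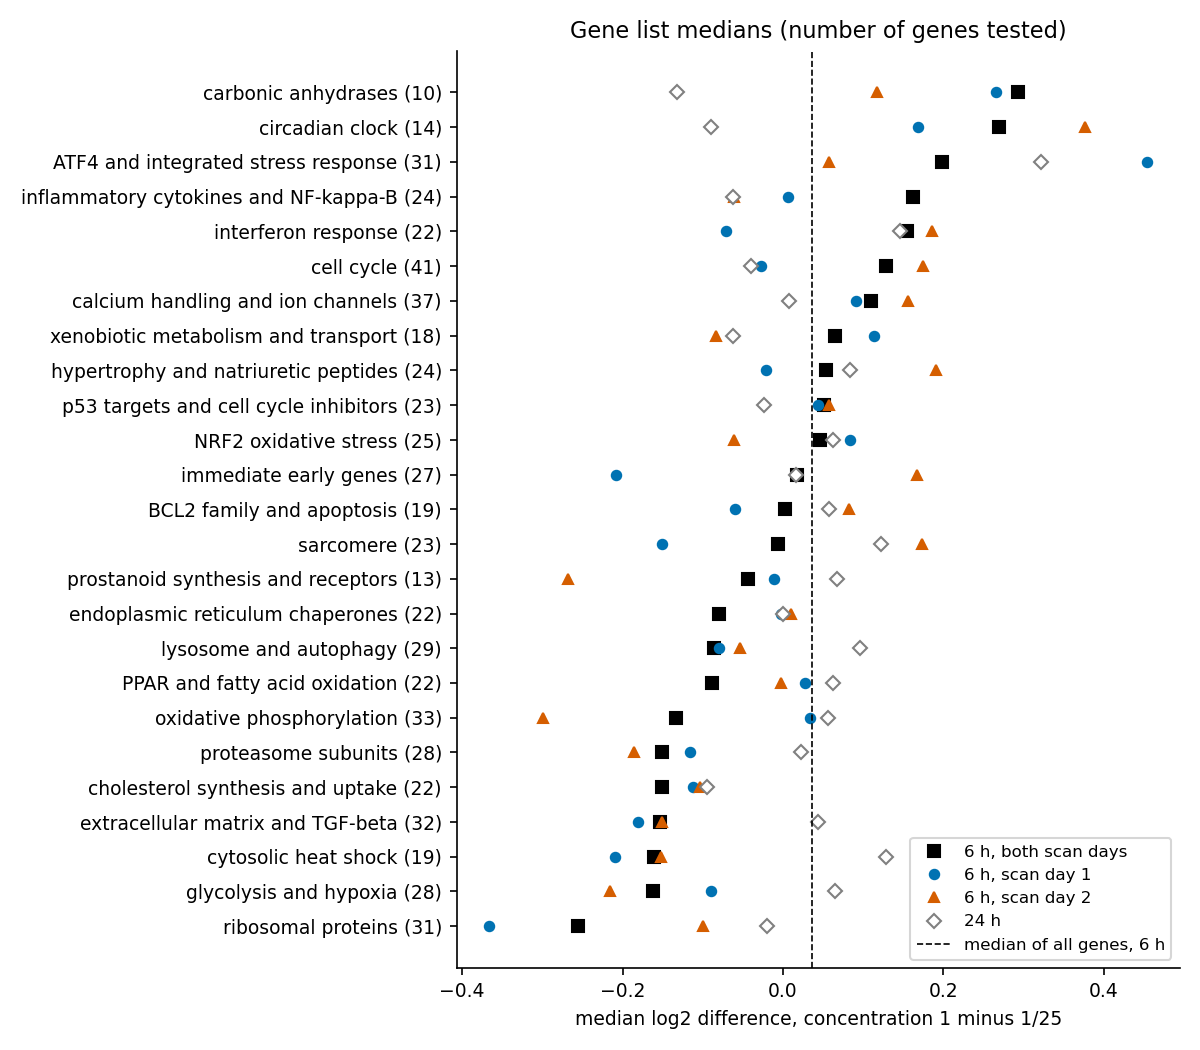
Median log2 difference, concentration 1 minus 1/25 (horizontal), of each pathway list (vertical, with the number of genes tested), as squares for the 6 h fit, circles and triangles for the within-day values at 6 h and open diamonds for 24 h, with the median of all genes at 0.04 as a dashed line. The medians of the 6 h fit run from -0.26 for ribosomal proteins to 0.29 for carbonic anhydrases. In some lists, the sarcomere list among them, the 2 scan days lie on either side of the dashed line. That line holds for the 6 h fit only: the median of all genes was -0.04 within day 1 and 0.11 within day 2.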

How the data were processed

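The authors deposited 1 Agilent Feature Extraction file per array, extracted with version 9.5.3.1 per the file headers, with a linear fluorescence intensity for every spot. The value table they deposited beside these holds a linear ratio, which was used only as an alternative. The processed signal was scaled to the 75th percentile of its array and taken to log2, outlier spots were left out and spots of a probe were averaged. A probe was kept where all arrays of some group read it well above background (31705 of 41012), and a gene was read from its brightest kept probe (27717 genes, of which 27713 had values in all groups compared). Probes were named by RefSeq accession (10735), by current symbol or synonym (9300) or by another listed accession (57), through RefSeq's GRCr8 gene table, and 20920 kept the file's name.

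All 20 arrays were fitted in limma 3.58.1 (R 4.3.3) with a mean per group and scan day as a fixed block, leaving 12 residual degrees of freedom (15.3 after moderation). Tests were two-sided, with Benjamini-Hochberg adjustment over all genes and calls at an adjusted p below 0.05. The difference between 6 h and 24 h was a contrast of the same fit. Intervals are 95%, and the number of arrays limits the precision. The fit was tested on simulated data. The correlation within slides came from statmod 1.5.0, and files were read with version 1.17.8 of data.table and jsonlite 2.0.0. Promoter sequences were RefSeq's.

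Genes were named by rule: in each direction up to 12 called genes, filled to 6 by the smallest p, among symbols that do not start with LOC, RGD or a number, well above background on all 6 arrays, not saturated on all arrays of a group, and apart in the same direction on both scan days. Ptgs1, Ptgs2, Ptges and Ptgis and the 3 members of each list with the smallest p were also eligible. A few of these genes are not reported here. The members and lists were chosen with earlier results of these data known. Replicate numbers were not used to pair the samples in the main fit, and no test over the lists was made. Alternatives covered scan day, arrays fitted, scaling, background, filter, probes per gene, replicate and slide blocks, the deposited table and leaving out arrays.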

Additional observations from a re-analysis of the deposited data

How the results depend on the processing

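The count of 0 genes at 6 h held without the scan day term, with only the 6 arrays, under each scaling, background, filter and probe rule, in the deposited table and with slide as a random block (correlation within slides -0.068). It was 21 within scan day 1, 2 within scan day 2 and 0 to 26 when arrays were left out in turn. Leaving out the lone array of a scan day leaves the difference within the other day, so these alternatives are not separate. The unadjusted count of 1539 was 636 with only the 6 arrays, 1019 for genes well above background on all 6, and 1164 to 4071 when arrays were left out. The unadjusted split of 1135 higher and 404 lower was 655 and 744 under median scaling and 659 and 739 in the deposited table. The difference between the times gave 0 to 2 genes, and 978 to 2620 unadjusted, when arrays were left out. It has no value within scan day 2, which held no 24 h arrays. Same-numbered arrays deviated together for number 1 (r 0.46) and number 3 (0.31) but not for number 2 (-0.059). Numbers 1 and 3 each shared a scan day, and number 2 did not. Replicate 3 of concentration 1 and replicate 2 of 1/25, both of day 2, gave 0.38. Scan day was not removed from these deviations, so they cannot decide whether the numbers pair. No pairing was used in the main fit. With replicate as a block, 0 genes passed and 1629 had an unadjusted p below 0.05, and Ptges turned to 0.026. Of 417 values of 22 named genes under alternatives, 405 kept direction and side of the threshold, 11 turned (Ptgis, Ptges) and 1 passed (Zfp335). Ptgis was -0.10 without the scan day term, -0.32 within day 2, -0.051 under median scaling and -0.050 in the deposited table, and -0.32 at the lowest when arrays were left out, against 0.54 at the highest. Ptges was 0.10 within day 1 and 0.033 with normexp background, and -0.21 to 0.16 when arrays were left out. Of 608 list medians, 587 moved by less than the spread between arrays and 21 by more. The cause of these shifts was not tested. Signal over background limits Slc7a11, Sesn1, Ptgdr, Ptger1, Nqo1, Kcne1, Angptl4, Cry2 and Nkx2-5, and saturation limits Atf4, Dbp and most ribosomal protein genes.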
